A study of Homo sapiens with 12 samples.

Results

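The genes described here are those that make the sterol regulatory element binding proteins (SREBPs) and the machinery that senses sterols and releases these factors. They were the 7 genes SREBF1, SREBF2, SCAP, INSIG1, INSIG2, MBTPS1 and MBTPS2, chosen by symbol after the Ensembl identifiers were matched to gene names. All 7 were among the 19251 genes listed, and all 7 passed the filter on low values that left 17616 genes for testing. RNA was sequenced from 12 libraries of 2 human ovarian cancer cell lines, CAOV3, labelled as high grade serous, and TOV21G, labelled as clear cell, both labelled wild type. In each line 3 untreated libraries and 3 libraries from cells kept for 16 h with 10% ascites, a fluid that builds up in the abdomen of patients with this cancer, were compared. All cells, controls included, grew in medium with 10% fetal bovine serum, and the labels describe no fluid added to the control wells. How many patients the ascites came from, and whether cells had been removed from it, are not given in the sources used here. Each cancer type is represented by a single line, and the labels do not say that replicates came from separate cultures, so the p-values measure only the spread between these libraries.

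SREBPs are made as precursors held in the membrane of the endoplasmic reticulum, bound to the escort protein SCAP. When sterols are plentiful, INSIG proteins hold SCAP in place, and when sterols are scarce, SCAP carries the precursor in COPII vesicles to the Golgi, where the proteases encoded by MBTPS1 and MBTPS2 cut it in turn. The released part enters the nucleus and raises genes of cholesterol and fatty acid synthesis and uptake, among them INSIG1 and SREBF2 themselves. The libraries measure RNA only, so neither cleavage nor the amount of protein in the nucleus was measured.

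The DNA before the start sites is shown for SREBF2, SREBF1 and INSIG1, the members that fell in both lines, and, around an E-box only, for INSIG1 and for SCAP, which did not pass the test. The sequences are RefSeq's, on GRCh38.p14, for chr22:41832855-41833078 (SREBF2, plus strand), chr17:17837003-17837236 (SREBF1, minus strand), chr7:155297628-155297775 and chr7:155297811-155297840 (INSIG1, plus strand) and chr3:47475982-47476011 (SCAP, minus strand). Capitals mark a sterol regulatory element (searched as TCACNCCAC, where N is any base), the CCAAT box, which reads ATTGG where it lies on the other strand, and the E-box (CACGTG), each searched on both strands.
SREBF2: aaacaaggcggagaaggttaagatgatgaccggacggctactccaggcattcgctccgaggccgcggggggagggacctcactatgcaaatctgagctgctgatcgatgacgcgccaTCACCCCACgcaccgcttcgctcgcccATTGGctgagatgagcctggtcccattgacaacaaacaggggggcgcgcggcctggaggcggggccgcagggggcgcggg
SREBF1: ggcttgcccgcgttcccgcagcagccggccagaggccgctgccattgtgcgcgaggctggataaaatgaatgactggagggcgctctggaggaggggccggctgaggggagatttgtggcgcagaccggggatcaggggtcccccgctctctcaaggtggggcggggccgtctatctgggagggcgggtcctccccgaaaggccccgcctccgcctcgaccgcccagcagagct
INSIG1: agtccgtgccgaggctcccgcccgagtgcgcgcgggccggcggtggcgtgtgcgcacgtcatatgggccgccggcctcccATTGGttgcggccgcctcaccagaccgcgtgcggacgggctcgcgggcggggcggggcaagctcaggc
INSIG1 around the E-box: gccgggcaggctCACGTGatgcgggccccg
SCAP around the E-box: cgccgctgggcgCACGTGcggagggcggcg
Over the 250 bases before each start, SREBF2 was the only member whose window held the sterol element, 133 to 125 bases before its RefSeq start, and 0.883% of the 35116 promoters in the table held it. The CCAAT box stood 106 to 102 bases before the start of SREBF2 and 170 to 166 bases before that of INSIG1, and 32% of promoters held one. INSIG1 had the E-box 55 to 50 bases before its start and SCAP 58 to 53 bases before, against 6.34% of all promoters, and both boxes lie in sequence that GENCODE annotates as untranslated exon of other transcripts. The GC box (GGGCGG), left in lower case, was found 5 times in INSIG1, 3 times each in SREBF1 and SCAP and 2 times in SREBF2. It was found 1 time in each window of INSIG2, which has 2 starts, and 42.6% of promoters held at least 1. The SREBF1 window lies before a start at the upstream end of the annotated gene, and starts within that gene were not searched. It held none of the capitalised motifs, and the windows of MBTPS1 and MBTPS2 held no match to any motif searched. These matches describe letters in the window and not binding. Variant forms of the motifs and DNA farther upstream were not searched, so a window without a match does not show that the gene lacks the element.

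The 12 libraries held between 26697609 and 34491304 reads, and the values are read counts that the authors had scaled for depth (normalised read counts). The member with the fewest reads was INSIG2, with 455 to 654 per library, at which counting alone gives a spread of 4.69%, and the other 6 members had at least 761 reads in every library. In TOV21G the libraries of a group stood apart along a shared axis that carried 71.7% of the within-group variance, with control 1 and ascites 2 at one end and control 2 and ascites 3 at the other. KCNQ1OT1, a long nuclear RNA, differed along the same axis, at 95.39, 656.3 and 234.2 in TOV21G controls and 731.3, 234.5 and 1511 with ascites, beside 613.9 to 812.6 in CAOV3. Its part in the TOV21G results was not tested. Member calls that changed without these libraries are given with both values. The serous label of CAOV3 was checked against markers. PAX8 and WT1, usual markers of serous carcinoma, were near absent from the CAOV3 controls, at 19.1 ± 1.17 and 4.59 ± 2.11 (SD, n = 3), against 7032 ± 259 and 228 ± 7.85 in TOV21G controls, so the serous label was not borne out by PAX8 and WT1. The epithelial genes EPCAM, KRT7, KRT8 and KRT18, examined beside them, went the other way. They were at 735, 21580, 66468 and 47679 in CAOV3 controls and at 389, 293, 5287 and 5738 in TOV21G controls.

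Some members share sequence with other genes, and the strandedness of the libraries is not given in the sources used here. On GRCh38 (GENCODE release 29), SREBF1 (ENSG00000072310) lies on chromosome 17 at 17810399 to 17837002, on the minus strand, and shares exonic bases with RAI1 on the other strand. RAI1 averaged 4119 ± 111 in CAOV3 controls, 3930 ± 94 with ascites, 2722 ± 66.9 in TOV21G controls and 2645 ± 32.4 with ascites, so the SREBF1 counts are uncertain to the extent that reads were shared. SREBF2 (ENSG00000198911; chromosome 22, 41833079 to 41907308, plus strand) overlaps the antisense gene SREBF2-AS1, whose group means were 4.92 to 9.28. MBTPS2 (ENSG00000012174; chromosome X, 21839636 to 21885424, plus strand) shares exonic bases with YY2 on the same strand, at 35.2 to 76.3. The other members are SCAP (ENSG00000114650) on chromosome 3 at 47413694 to 47477126, minus strand, INSIG1 (ENSG00000186480) on chromosome 7 at 155297776 to 155310235, plus strand, INSIG2 (ENSG00000125629) on chromosome 2 at 118088452 to 118110997, plus strand, and MBTPS1 (ENSG00000140943) on chromosome 16 at 84053761 to 84116906, minus strand. The microRNA genes MIR33A and MIR33B, annotated within SREBF2 and SREBF1, were not analysed here.

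After ascites the transcripts of INSIG1 and of both SREBP genes fell in both lines, INSIG1 the most, while SCAP, INSIG2 and the protease genes did not pass the test in either. Calls were made in limma where the adjusted p was under 0.05, with the model fitted to log2(value + 1) of all 12 libraries and adjusted over the 17616 genes. In CAOV3, 3 of the 7 members were called lower and 0 higher, where 1.1% of all genes tested were called lower. In TOV21G the count was again 3 lower and 0 higher, against 0.267% of all genes. The same 3 members were among the 21 genes called lower in both lines, 0.119% of those tested. The members were chosen with earlier results of these data known, so these counts are not independent evidence. The median difference over the 7 members was -0.16 in CAOV3 and -0.09 in TOV21G on the log2 scale, beside 0.0 and -0.02 over all genes. The ascites libraries lay wholly below the controls for 4 members in CAOV3, where 12.8% of all genes did so, and for 3 members in TOV21G, where 6.99% did so. In bulk RNA, fewer cells expressing a gene and less RNA per cell cannot be told apart.

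**Figure D1:**
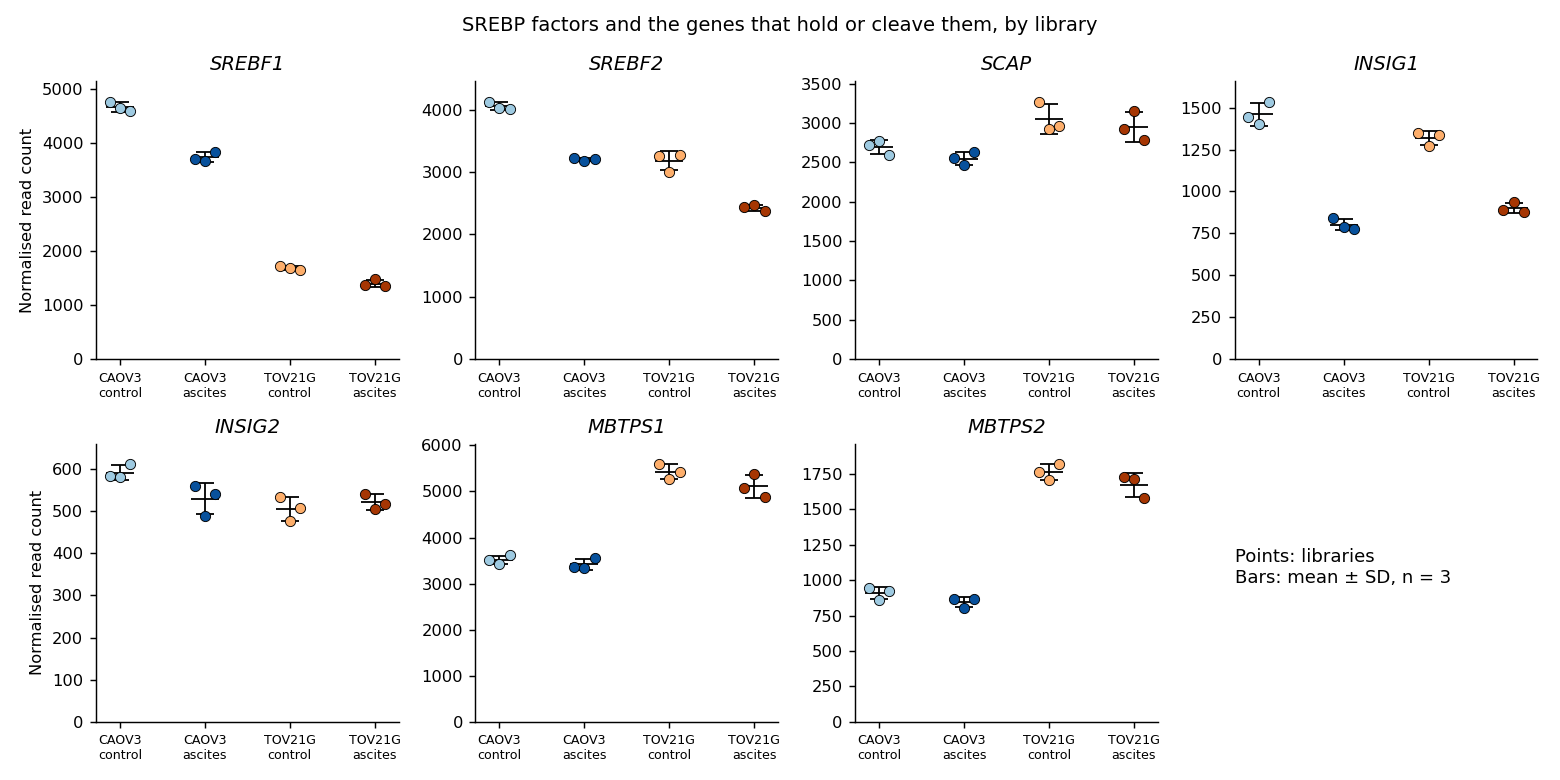
Normalised read counts (y axis, from 0) of the 7 genes in every library, by line and treatment (x axis), with the mean and SD of 3 libraries. The ascites points lie below the control points in both lines for SREBF1, SREBF2 and INSIG1, and overlap them in both lines for SCAP, MBTPS1 and MBTPS2.

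INSIG1 encodes the retention protein whose own gene is a classic SREBP target. Its normalised counts in CAOV3 were 1444, 1400 and 1536 in the controls and 839, 785 and 779 with ascites. The lowest control library held far more than the highest ascites library. The difference was -0.87 ± 0.049 on the log2 scale (SE; 95% interval -0.97 to -0.76), so INSIG1 fell by 45.1%, with a limma adjusted p of 8.27e-07, the 5th smallest p of all genes in that line. In TOV21G the controls held 1350, 1274 and 1334 and the ascites libraries 890, 934 and 879. The groups were again fully apart, with a difference of -0.55 ± 0.049 (-0.66 to -0.44), so that it fell by 31.7%, and a limma adjusted p of 0.000199, again the 5th smallest. By size of the fall, INSIG1 ranked 183rd of all genes in CAOV3 and 360th in TOV21G. Its call was kept in both lines under every alternative fit and without any single library, with adjusted p-values of at most 0.029.

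INSIG2 encodes the second retention protein, which is not a known direct SREBP target. CAOV3 controls held 583, 581 and 612 and ascites libraries 561, 489 and 541. The ascites libraries were all lower, but the difference of -0.16 ± 0.065 (-0.3 to -0.02) had an unadjusted p of 0.0279 and a limma adjusted p of 0.304. In TOV21G the values were 534, 477 and 507 in controls and 542, 504 and 518 with ascites, and the groups overlapped. The difference there was 0.04 ± 0.065 (-0.1 to 0.18; limma adjusted p = 0.856), so a change of the size seen for INSIG1 lay outside the interval in both lines.

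SREBF2 encodes SREBP-2, the form best known for raising cholesterol synthesis and uptake genes. It was at 4127, 4016 and 4013 in CAOV3 controls and at 3216, 3171 and 3208 with ascites. The ascites libraries were tightly grouped below the controls, and the difference was -0.34 ± 0.039 (-0.43 to -0.26; limma adjusted p = 0.000476), so SREBF2 fell by 21.1%. TOV21G controls held 3258, 2999 and 3277 and the ascites libraries 2437, 2472 and 2377. No ascites library reached the lowest control, and SREBF2 fell by 23.5%, at -0.39 ± 0.039 (-0.47 to -0.3; limma adjusted p = 0.000521, the 7th smallest p in that line). SREBF2 was called in both lines under every alternative fit and without any single library.

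SREBF1 encodes SREBP-1a and SREBP-1c, which share most exons and are best known for fatty acid synthesis genes; counts per gene do not separate these forms. In CAOV3 it was at 4772, 4648 and 4590 in controls and at 3711, 3663 and 3844 with ascites. These groups were fully apart, and SREBF1 fell by 19.9%, at -0.32 ± 0.042 (-0.41 to -0.23; limma adjusted p = 0.00125). In TOV21G the controls held 1733, 1682 and 1660 and the ascites libraries 1363, 1482 and 1351. The groups did not overlap and SREBF1 fell by 17.3%, at -0.27 ± 0.042 (-0.37 to -0.18; limma adjusted p = 0.0135). The TOV21G call rested on single libraries: the limma adjusted p was 0.0505 without control 3, 0.0675 without ascites 1 and 0.051 without ascites 3, with differences of -0.29, -0.26 and -0.25. It was also lost when TOV21G was fitted alone (0.156), without a trend in the variance prior (0.0567), and without control 2 and ascites 3 together (0.0698), whereas leaving out control 1 and ascites 2 together gave -0.3 with an adjusted p of 0.00393.

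SCAP encodes the escort and sterol sensor itself. It stood at 2718, 2771 and 2589 in CAOV3 controls and at 2549, 2462 and 2625 with ascites, and at 3270, 2918 and 2957 in TOV21G controls and 2925, 3149 and 2778 with ascites. Groups overlapped in both lines, and the differences were -0.08 ± 0.055 (-0.2 to 0.04; limma adjusted p = 0.594) and -0.05 ± 0.055 (-0.17 to 0.07; limma adjusted p = 0.805). These intervals do not reach the fall seen for INSIG1, SREBF1 or SREBF2 in the same line. Without TOV21G control 1 the TOV21G difference was 0.0045, so its sign was not settled.

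MBTPS1 encodes the site-1 protease, which makes the first cut. Its values were 3509, 3436 and 3614 in CAOV3 controls and 3356, 3328 and 3559 with ascites, with a difference of -0.04 ± 0.044 (-0.14 to 0.05; limma adjusted p = 0.746). In TOV21G they were 5590, 5262 and 5424 against 5075, 5385 and 4889, with a difference of -0.09 ± 0.044 (-0.18 to 0.01; limma adjusted p = 0.59). The groups overlapped in both lines. MBTPS2 encodes the site-2 protease, which makes the second cut within the membrane. It was at 942, 861 and 921 in CAOV3 controls and at 866, 805 and 868 with ascites, and at 1761, 1704 and 1818 in TOV21G controls and 1725, 1715 and 1578 with ascites. Its differences were -0.1 ± 0.052 (-0.21 to 0.01; limma adjusted p = 0.448) and -0.07 ± 0.052 (-0.19 to 0.04; limma adjusted p = 0.668), with overlapping libraries in both lines.

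**Figure D2:**
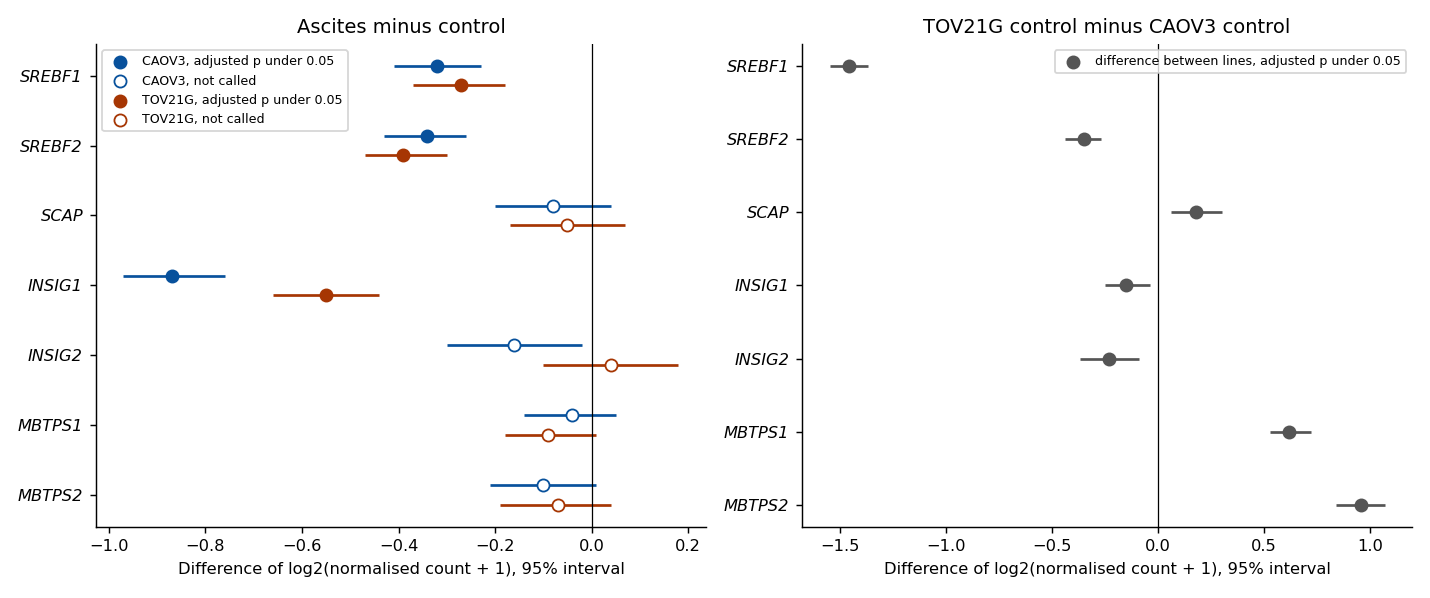
Differences of log2(normalised count + 1) with 95% intervals from limma (x axis) for each gene (y axis), for ascites minus control in each line (left) and TOV21G control minus CAOV3 control (right). Filled points had an adjusted p under 0.05; at left these are INSIG1, SREBF1 and SREBF2 in both lines, with INSIG1 at -0.87 and -0.55, and at right all 7 genes.

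The responses of the lines were compared by the difference between them (TOV21G minus CAOV3). No member was called in limma, where 0.545% of all genes were. An unadjusted p under 0.05 was found for 2 members, INSIG1 and INSIG2, and for 2091 of the 17616 genes tested. The INSIG1 response was smaller in TOV21G by 0.32 ± 0.07 on the log2 scale (0.16 to 0.47), with an unadjusted p of 0.000588 and a limma adjusted p of 0.0779. This result turned on the tool and the scaling: the adjusted p was 0.015 in edgeR (0.34), 0.0237 in DESeq2 (0.32) and 0.0213 in limma after TMM scaling (0.34), and each of these called INSIG1 alone among the members. Leaving out single libraries gave limma adjusted p-values of 0.0837 to 0.205. For INSIG2 the difference between responses was 0.2 ± 0.091 (0.01 to 0.4; limma adjusted p = 0.413). The SREBF1 and SREBF2 responses differed between lines by 0.05 (-0.08 to 0.17) and -0.05 (-0.16 to 0.07), with limma adjusted p-values of 0.761 and 0.74. Those of SCAP, MBTPS1 and MBTPS2 differed by -0.04 to 0.03.

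Ratios within a library do not depend on its scaling, and INSIG1 against SCAP sets the RNA of the retention protein beside that of its partner. The ratio of their normalised counts, not corrected for length, was 0.531, 0.505 and 0.593 in CAOV3 controls and 0.329, 0.319 and 0.297 with ascites. In TOV21G it was 0.413, 0.437 and 0.451 in controls and 0.304, 0.297 and 0.316 with ascites. Ascites libraries were lower in both lines, by -0.78 and -0.5 on the log2 scale, and the ascites groups of the 2 lines averaged 0.315 ± 0.0167 and 0.306 ± 0.00992 (SD, n = 3). INSIG1 against INSIG2 went from 2.47 ± 0.0507 to 1.51 ± 0.0856 in CAOV3 and from 2.61 ± 0.0751 to 1.73 ± 0.109 in TOV21G, again with no overlap. Each of these 4 comparisons had an exact permutation p of 0.1 (two-sided), the smallest that 3 against 3 libraries can give, and 0.129 after adjustment over the 9 ratio comparisons made. SREBF1 against SREBF2 was 1.15 ± 0.00756 in CAOV3 controls and 1.17 ± 0.0251 with ascites (exact permutation p = 0.6), and 0.533 ± 0.0271 and 0.576 ± 0.0211 in TOV21G (exact permutation p = 0.2). The groups overlapped in both lines for this ratio.

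**Figure D3:**
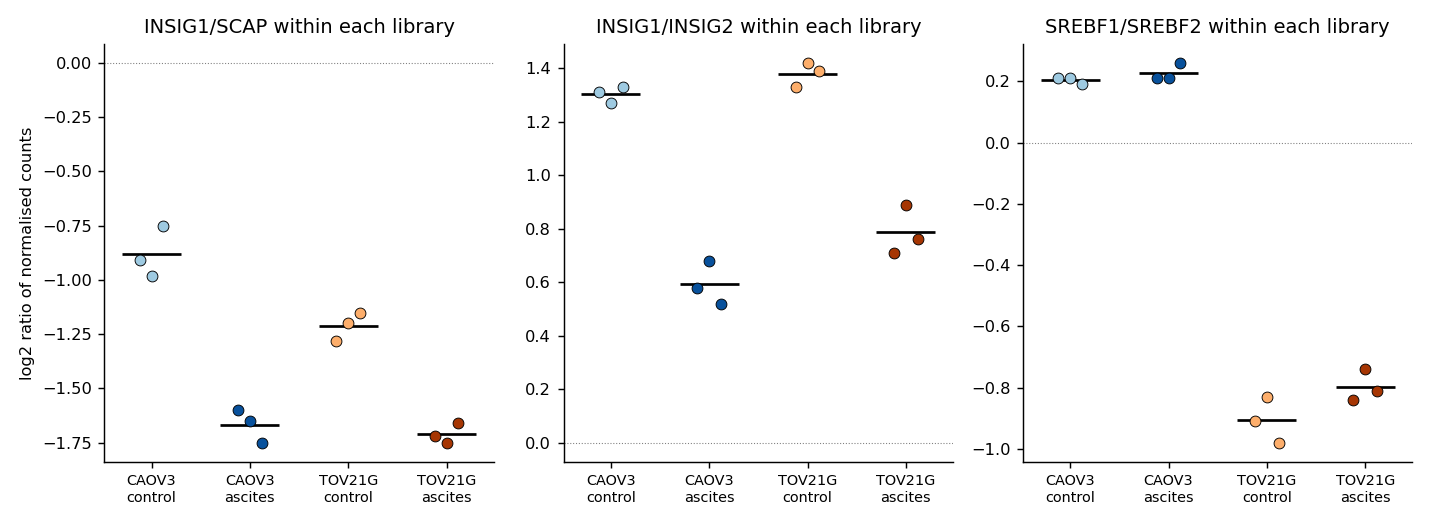
The log2 ratio of normalised counts within each library (y axis) for 3 gene pairs, by line and treatment (x axis), with the group mean as a bar. INSIG1 relative to SCAP and to INSIG2 is lower in all ascites libraries than in the controls of the same line, and SREBF1 relative to SREBF2 differs mainly between the lines.

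Untreated, the lines differed in every member. TOV21G had less SREBF1, SREBF2, INSIG1 and INSIG2 and more SCAP, MBTPS1 and MBTPS2. All 7 were called in limma, 3 higher and 4 lower in TOV21G, but so were 82.2% of all genes (40.8% higher and 41.4% lower), and the control libraries did not overlap for 7 members and for 82.6% of all genes. The widest gap was in SREBF1, at 4670 ± 93.1 in CAOV3 and 1692 ± 37.7 in TOV21G (SD, n = 3), a difference of -1.46 ± 0.042 (limma adjusted p = 7.92e-13). MBTPS2 was 1.94-fold higher in TOV21G, at 1761 ± 57.1 against 908 ± 42.4 (0.96 ± 0.052; limma adjusted p = 7.45e-10), and MBTPS1 1.54-fold higher, at 5425 ± 164 against 3520 ± 89.8 (0.62 ± 0.044; limma adjusted p = 1.21e-08). SREBF2 was lower by a smaller step, 3178 ± 155 against 4052 ± 64.5 (-0.35 ± 0.039; limma adjusted p = 1.4e-06). The remaining differences were small: 0.18 for SCAP (limma adjusted p = 0.00885), -0.23 for INSIG2 (0.00535) and -0.15 for INSIG1 (0.0146). The INSIG1 difference was no longer called without CAOV3 control 3 (-0.11; limma adjusted p = 0.068), without TOV21G control 2 (-0.12; 0.057), or without TOV21G control 2 and ascites 3 together (-0.12; 0.0574). SREBF1 relative to SREBF2 was 1.15 in CAOV3 controls and 0.533 in TOV21G controls, a log2 difference of -1.11 (exact permutation p = 0.1, adjusted 0.129).

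Levels of different genes were compared per kilobase of annotated exon. In CAOV3 controls the order was SREBF1 (582 normalised counts per kb), SREBF2 (536), SCAP (419), INSIG1 (400), MBTPS1 (344), INSIG2 (150) and MBTPS2 (102), and SCAP and INSIG1 overlapped between libraries. With ascites INSIG1 dropped below MBTPS1, at 219 against 334 per kb, and SREBF1 and SREBF2 stayed first and second at 466 and 423. TOV21G controls had another order, led by MBTPS1 (530) and SCAP (474), then SREBF2 (421), INSIG1 (361), SREBF1 (211), MBTPS2 (197) and INSIG2 (128). With ascites in TOV21G, MBTPS1 (500) and SCAP (459) overlapped, as did MBTPS2 (187) and SREBF1 (174), with INSIG1 at 247. All other neighbours in these orders did not overlap between libraries. The order depends on the length used: per kilobase of the principal transcript, MBTPS1 (811) stood above SREBF2 (773) in CAOV3 controls.

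**Figure D4:**
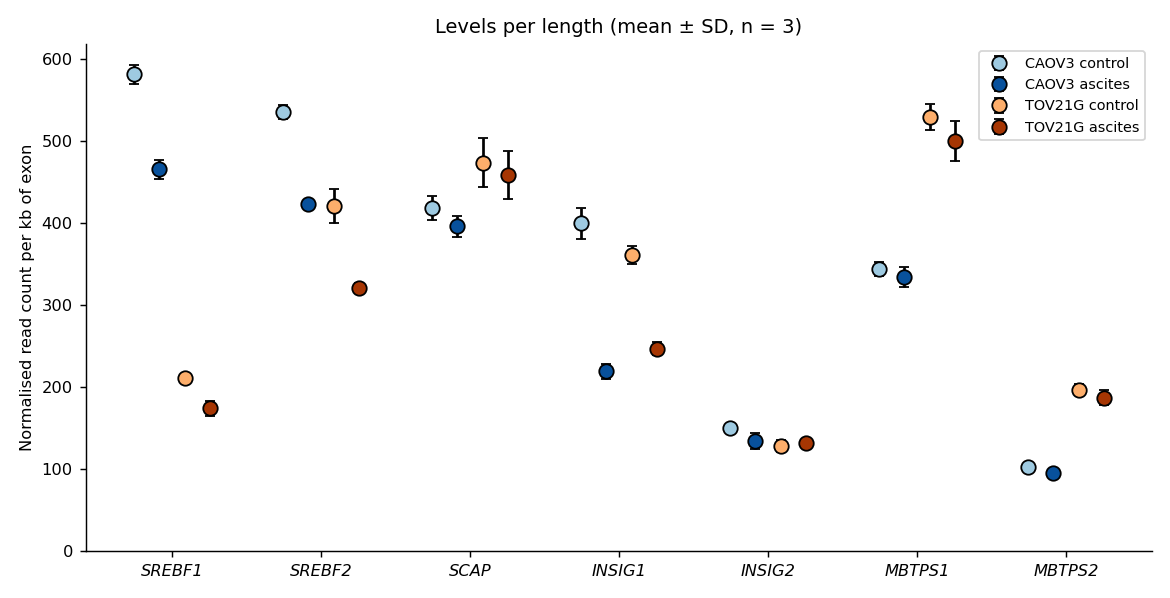
Normalised read counts per kilobase of annotated exon (y axis, from 0) for each gene (x axis), as group mean and SD of 3 libraries. SREBF1 is at 582 in CAOV3 controls and at 211 in TOV21G controls, and MBTPS1 and MBTPS2 are higher in TOV21G.

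The members that fell also varied together across libraries. After the mean of each line was subtracted, the Pearson correlation over the 12 libraries was 0.96 for SREBF1 with SREBF2, 0.96 for SREBF1 with INSIG1 and 0.95 for SREBF2 with INSIG1, and 0.28 to 0.75 for the other member pairs. These correlations are descriptions that include the step between control and ascites, and the points share library and scaling. Among 11886 genes with a mean of at least 100, those most like INSIG1 included IDH1 and HMGCS1 (r = 0.99 each) and MSMO1 and FADS1 (0.97 each). HMGCS1 and MSMO1 encode enzymes of cholesterol synthesis, and FADS1 a fatty acid desaturase. SREBF2 was most like IDI1 and FDFT1 (0.98 each), both of cholesterol synthesis, then MSX2 (0.97), ID2 and SREBF1 (0.96 each). The genes most like SREBF1 included ID2 and ID3 (0.97 each), SREBF2 and HMGCS1 (0.96 each). ID2 and ID3 encode inhibitors of helix-loop-helix transcription factors, and their differences were -0.32 and -0.31 in CAOV3 and -0.29 and -0.35 in TOV21G.

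The members that did not pass the test had other neighbours. SCAP was most like ATP13A2, PHETA2, AKR7A2 and CAMSAP3 (0.94 each) and MYO1C (0.93). MBTPS1 was most like SLC38A10 and ERBB2 (0.97 each), then LDB1, DDIT4 and DCTN1 (0.96 each), and MBTPS2 most like BACE1 (0.94), KIAA1522 and CRELD1 (0.93 each), TPP1 (0.91) and DOCK6 (0.9). INSIG2 was most like HAVCR1 (0.92), KCNJ16 (0.91), ZNF189 (0.9), SLC25A45 (0.88) and ARHGEF28 (0.87). None of these neighbours had a limma adjusted p under 0.1 in either line.

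Other genes that act on SCAP, INSIG or the SREBP precursor were counted against the share of all genes called, 1.1% lower and 0.636% higher in CAOV3 and 0.267% lower in TOV21G. At those shares lists of this size would hold about 0 calls, so a count of 0 does not set them apart from other genes. An unadjusted p under 0.05, also counted below, was far more common. It was reached by 2280 of the 17616 genes in CAOV3 and by 1615 in TOV21G. Of 16 partners of SCAP and INSIG (among them the ubiquitin ligase RNF139 and the extraction factor VCP), 0 were called in either line in limma. In CAOV3, 2 had an unadjusted p under 0.05 and edgeR and DESeq2 each called 1, higher, as did limma without TOV21G ascites 2; this was PAQR3, a Golgi anchor of SCAP, at 0.19, and it is named after its values were seen. In TOV21G 0 had an unadjusted p under 0.05 and neither tool called any. Of 14 genes of the COPII coat, which carries SCAP to the Golgi, 0 were called in either line by limma, edgeR or DESeq2, with 0 and 1 at an unadjusted p under 0.05. With TOV21G fitted alone, 13 of the 14 passed the filter, the remaining gene being low in that line. Of 8 other substrates of the same proteases, such as ATF6, 0 were called in limma and edgeR and 1 lower per line in DESeq2, with 1 per line at an unadjusted p under 0.05. With TOV21G fitted alone, 7 of the 8 passed the filter, the remaining gene being near 0 in that line. In limma 1 of the 8 was called lower in TOV21G without control 2, and 1 higher in TOV21G and 1 lower in CAOV3 without TOV21G control 1 and ascites 2 together. With CAOV3 fitted alone, limma called 1 SCAP or INSIG partner higher, 1 COPII gene lower and 1 other substrate lower. That fit called far more genes, 574 of 15808 higher and 721 lower. After TMM scaling, and without TOV21G control 1 and ascites 2 together, it also called 1 partner higher in CAOV3. The medians of these lists were 0.04, -0.05 and -0.06 in CAOV3 and -0.05, -0.02 and -0.06 in TOV21G.

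Among 17 nuclear partners and regulators, such as the CCAAT box subunits NFYA to NFYC, SP1 and the ligase subunit FBXW7, 1 was called in CAOV3 and 0 in TOV21G. The gene was LPIN1, a phosphatidate phosphatase, at 1897 ± 28.3 in controls and 1556 ± 64.7 with ascites (-0.29 ± 0.052; limma adjusted p = 0.0131). Its limma adjusted p was 0.0503 to 0.0671 without CAOV3 control 1, control 3, ascites 2 or ascites 3. With CAOV3 fitted alone, limma called 2 of the 17 lower and 1 higher, beside 721 lower and 574 higher of all 15808 genes in that fit. In TOV21G, 1 of the 17 had an unadjusted p under 0.05, and edgeR and DESeq2 called 0. Of 9 genes of the liver X receptors and their targets, which respond to oxysterols and include ABCA1, 0 were called in either line by limma, edgeR or DESeq2, and 2 in CAOV3 and 1 in TOV21G had an unadjusted p under 0.05. With TOV21G fitted alone, 7 of the 9 passed the filter. The rest were low there and were tested through their CAOV3 values, so a fall in TOV21G could hardly be seen. In limma 1 was called lower in TOV21G without control 1, alone or with ascites 2. ABCA1, the cholesterol exporter, was at 733 ± 44.4 and 698 ± 50 in CAOV3 and at 26.6 ± 3.32 and 28.3 ± 5.35 in TOV21G, control and ascites in turn.

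Many targets of the SREBPs fell too. These lists were chosen with their results in these libraries known, so their direction is not independent evidence. Of 23 genes of cholesterol synthesis and uptake, 12 fell and 0 rose in CAOV3, and 10 fell and 0 rose in TOV21G, beside 1.1% and 0.267% of all genes called lower, with a median of -0.25 in each line. The called genes with the smallest adjusted p in CAOV3 included HMGCS1 (-0.38), STARD4, a sterol carrier (-0.72), and IDI1 (-0.48). In TOV21G they included IDI1 (-0.5) and FDFT1 (-0.37), which was not called when that line was fitted alone (limma adjusted p = 0.0872).

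The sterol target counts moved with the libraries used. The TOV21G count was 4 without control 3, 5 without control 1, ascites 1 or ascites 3, and 6 without any of the CAOV3 ascites libraries in turn. It was also 4 with that line fitted alone or without the trend, and 5 without control 2 and ascites 3 together. Calls over all genes fell in the same settings. In TOV21G 47 genes were called lower in the main fit and 16 without control 3. That number was 22 without control 1 or ascites 1, and 21 without ascites 3. It was 27 to 30 without a CAOV3 ascites library, 12 with the line alone and 27 without the trend. In CAOV3 the sterol target count was 8 without control 3 or ascites 2 and 9 to 13 without other single libraries. Over all genes, those called lower in CAOV3 went from 193 to 97 without control 3 and to 94 without ascites 2. Of 12 fatty acid and lipid synthesis genes tested, 4 fell in CAOV3, namely FADS2 (-0.56), FADS1 (-0.32), SCD (-0.43) and FASN (-0.23), and 2 fell in TOV21G, SCD (-0.97) and MID1IP1 (-0.47), and 0 rose in either, again beside 1.1% and 0.267% of all genes. However, 1 of the 12 was called higher in CAOV3 in edgeR, in limma after TMM scaling and with that line fitted alone. The same count was reached without TOV21G control 1 and ascites 2 together. Of all genes, 202 of 17616 were called higher in CAOV3 in edgeR and 171 after TMM scaling. Those called higher were 574 of 15808 with the line alone and 257 of 17468 without that pair. The FASN call was lost without CAOV3 control 1, control 2, ascites 1, ascites 2 or ascites 3 (limma adjusted p of 0.0573 to 0.0893). The MID1IP1 call was lost without TOV21G control 1 (0.074) or control 3 (0.101), with the line fitted alone (0.139), without the trend (0.0975) and without control 1 and ascites 2 together (0.0717), each leaving 1 of 12.

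**Figure D5:**
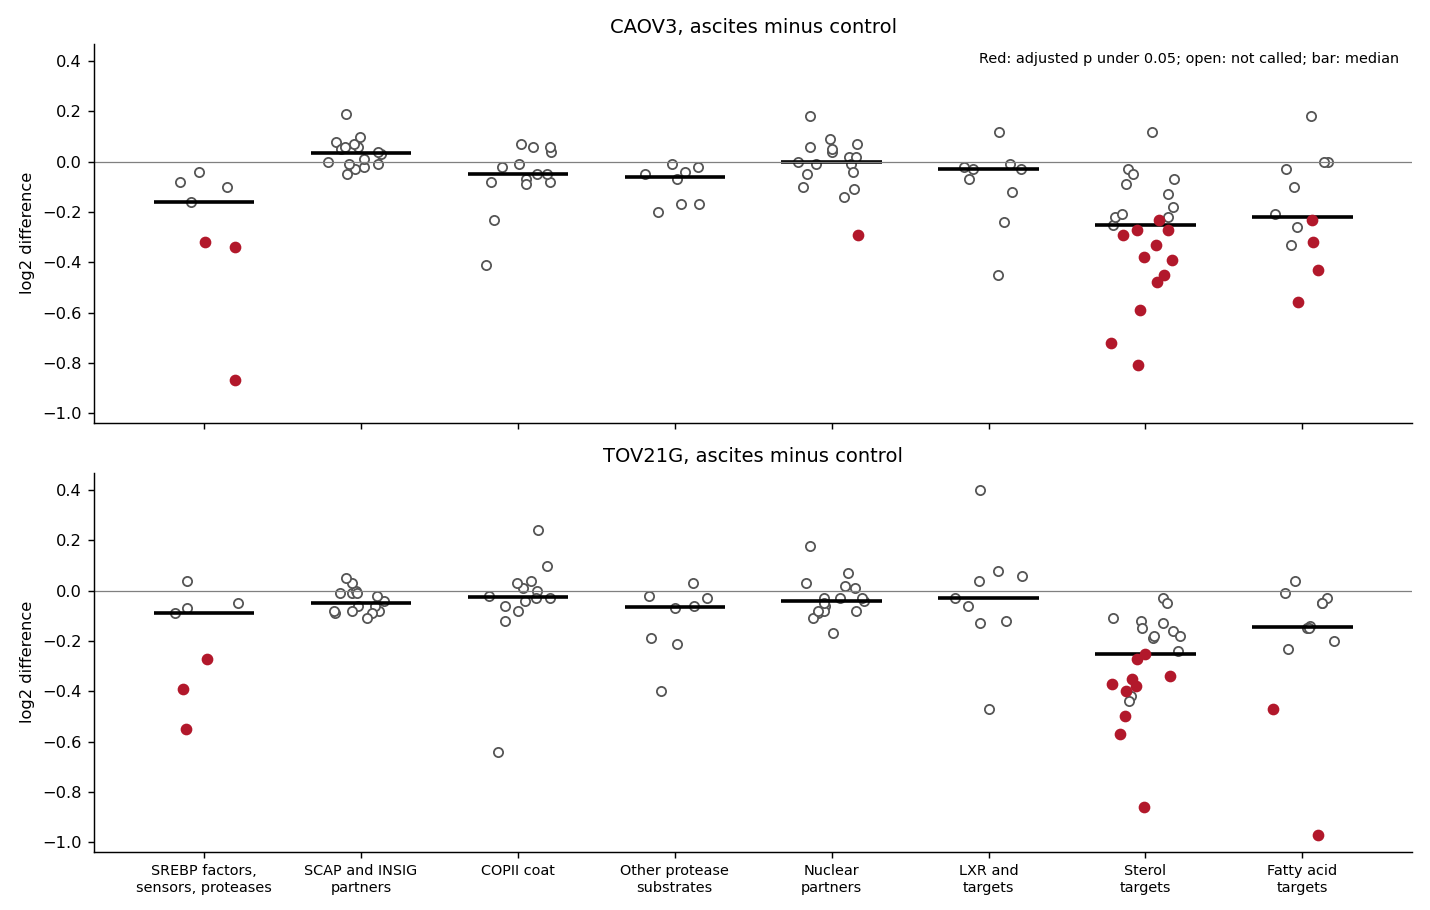
Differences of log2(normalised count + 1), ascites minus control (y axis), for the members and 7 lists of related genes (x axis) in CAOV3 (top) and TOV21G (bottom); each point is a gene, red where the adjusted p was under 0.05, with the list's median as a bar. Called genes lie among the members and the sterol and fatty acid targets, and in CAOV3 also at LPIN1 in the nuclear partners; sideways scatter only separates points.

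Markers of cells that ascites could carry were examined in the same libraries. Of 8 markers of leukocytes and red cells, only CD14 and LYZ were listed, and their summed values were 117 to 134 in CAOV3 controls, 101 to 125 with ascites, 8.39 to 13 in TOV21G controls and 11.6 to 20.4 with ascites, with LYZ at 0 in all TOV21G libraries. Of 7 markers of stroma, mesothelium and endothelium, 6 were listed. Their sums were 4278 to 4979 in CAOV3 controls and 3858 to 4062 with ascites, mostly LUM, and 1830 to 2046 and 1779 to 1933 in TOV21G, mostly COL1A1, with LUM at 0 in all TOV21G controls and at 0 to 4.97 with ascites. The CAOV3 stromal sum moved down with INSIG1 and the SREBP genes, and its part in that result was not tested. Limma and edgeR tested 2 leukocyte and 4 stromal markers and called 0 in either line over the 12 libraries. DESeq2 also called 0, but gave an adjusted p to few of them. These were 1 leukocyte marker in CAOV3, 0 in TOV21G, and 2 stromal markers per line. LYZ passed the filter through CAOV3 only, so it could show no fall in TOV21G. Limma called 1 stromal marker lower in CAOV3 with that line fitted alone, as it did 721 of all 15808 genes in that fit. It also called 1 lower in TOV21G without control 1 and ascites 2 together. In CAOV3, 1 stromal marker had an unadjusted p under 0.05, as did 2280 of the 17616 genes tested. The epithelial keratins moved the other way in CAOV3, where 0.636% of all genes were called higher: KRT18 was at 47679 ± 404 and 59866 ± 1718 (0.33; limma adjusted p = 0.0102) and KRT8 at 66468 ± 562 and 81372 ± 2435 (0.29; limma adjusted p = 0.0231). The KRT18 call was lost without CAOV3 ascites 1 (0.0515) or ascites 3 (0.0533), and the KRT8 call when any 1 CAOV3 library was left out (0.057 to 0.103) or without the variance trend (0.0655). Their part in the results for the members was not tested. The share of mitochondrial reads was 1.49% to 3.35% over the 12 libraries.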

How the data were processed

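The authors deposited 1 value per gene and library, a signal that is never negative; Trim Galore, cutadapt, STAR, HTSeq and DESeq are named in the submitters' processing notes, and versions, build, annotation, strandedness and kit are not given in the sources used here. In all 12 libraries 100% of the deposited values were whole multiples of a single step (within 0.001 reads), and the steps matched DESeq2 size factors computed on the recovered reads, so the signal equals whole reads over a library size factor, a step that no header or label records. The planned test assumed either kind of value, and limma 3.58.1 (R 4.3.3) was run on log2(value + 1), a scale that understates changes of low genes, with eBayes, a trend in the variance prior and a mean per group over all 12 libraries. Genes with a value of at least 10 in at least 3 libraries were tested. P-values are two-sided, with Benjamini-Hochberg adjustment over 17616 genes per contrast; ratios used exact permutation tests. The contrasts were ascites against control in each line, the difference of those responses, and the lines' controls.

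Symbols came from a gene name table for 17030 identifiers and from GENCODE release 29 for 2193, and 28 had none. Upstream sequences are from RefSeq's promoter table, in which all 7 members were found, cut before annotated untranslated exons except for 30 bases around an E-box; INSIG2 has 2 starts there. The members and lists were chosen with earlier results of these data known. Genes were named by a rule: all members, genes overlapping them, up to 4 called genes per list and line with the smallest adjusted p, and the 5 genes with a mean of at least 100 most correlated with each member; KRT8, KRT18 and the other markers come from the marker lists. A few genes that the rule names are not reported here. Alternatives were edgeR 4.0.16 and DESeq2 1.42.0 on the recovered reads, TMM scaling, pseudocounts of 0.5 and 5, no filter and a filter at 50, each line alone, no trend, a replicate block and leaving out each library; leaving out pairs of TOV21G libraries was added after seeing the data. The tests were first tested on simulated data. Depth limits precision only through counting error, and reads without molecular identifiers are not independent molecules.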

Additional observations from a re-analysis of the deposited data

Results flagged for a closer look

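In limma 0 of the 7 members had a called difference between the lines' responses, while edgeR, DESeq2 and limma after TMM scaling each called 1, INSIG1, and some genes of the lists beside them were called in limma. SCD fell more in TOV21G (-0.97) than in CAOV3 (-0.43), a difference of -0.54 ± 0.074 on the log2 scale (SE; limma adjusted p = 0.00664). KRT8 was called higher in CAOV3 (0.29) and was not called in TOV21G (-0.12). The KRT8 response differed by -0.41 ± 0.083 (adjusted p = 0.0483) and was lost when any 1 library other than TOV21G control 2 or ascites 2 was left out (0.0768 to 0.151), with a pseudocount of 0.5 (0.0532) and without the variance trend (0.118). SCD and KRT8 had levels of 43678 and 66468 in CAOV3 controls and of 1681 and 5287 in TOV21G controls. Groups of 3 libraries were not tested for single outlying values.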

How the results depend on the processing

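The number of members called was 3 in CAOV3 without any single library and 2 to 3 in TOV21G, 0 for the difference in response and 6 to 7 for the lines at baseline. The difference in response went from 0 members called to 1 (INSIG1) in edgeR, in DESeq2 and after TMM scaling. INSIG1 and SREBF2 were called in both lines in every alternative. Of the values of single members under alternatives, 641 kept their direction and side of the threshold, 10 lost the call and 3 gained it. 4 values near 0, none of them called, changed sign without single libraries: SCAP in TOV21G (0.0045 without control 1; range -0.10 to 0.0045), the SCAP difference in response (-0.01 without TOV21G ascites 2; range to 0.09), and that of MBTPS2 (-0.00059 without CAOV3 control 1 and -0.0094 without CAOV3 ascites 2; range to 0.07). With a replicate block the counts of members were 3, 2, 0 and 7, SREBF1 in TOV21G losing its call (adjusted p = 0.177), and the counts over all genes fell from 305 to 116 in CAOV3, from 72 to 13 in TOV21G and from 96 to 9 for the difference. The block also ended the calls of LPIN1 (0.0891), FASN (0.179), KRT18 (0.117) and KRT8 (0.185) in CAOV3, of FDFT1 (0.111) and MID1IP1 (0.128) in TOV21G, and of the SCD (0.0827) and KRT8 (0.364) differences in response. Same-numbered libraries did not deviate together (correlations of -0.07, 0.12 and 0.03 in CAOV3 and -0.34, -0.71 and 0.14 in TOV21G), so the numbers do not pair them. Over all genes, 305 were called in CAOV3 against 511 in edgeR, 507 in DESeq2 and 1295 with that line alone, and 72 in TOV21G against 114, 150 and 22. Without TOV21G control 1 and ascites 2 together, chosen after seeing the data, the counts were 620 and 101. Sterol targets called lower in TOV21G numbered 10, but 4 with that line alone or without the variance trend and 2 with the block (12 and 9 in CAOV3), and the fatty acid genes 2, but 4 in DESeq2 and 1 in those 3 settings. The causes were not tested. Ratio comparisons of 2 against 3 libraries cannot go below a p of 0.2.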
